A study of Bos taurus with 6 samples.

Results

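PHGDH and PSAT1, the enzymes of the opening steps of serine synthesis, were followed in cultured cortex of the fetal bovine ovary. They are 2 of the 103 genes with a symbol in the authors' deposited table of 158 probe sets, and 4 of the 24128 probe sets on the array were followed for them, chosen by name and by probe set number. PHGDH is named there (Bt.4733.1.S1_at). PSAT1 is listed as LOC533044 (Bt.13588.1.A1_at), whose gene number belongs to PSAT1 in RefSeq, and is called the PSAT1 probe set below. Another row of the table is titled as similar to phosphoserine aminotransferase isoform 2 (Bt.13588.2.S1_at, LOC617679). Its gene number has no entry in the RefSeq table used here, and it is called the isoform 2 row. One further probe set on the array, Bt.13588.3.A1_at, shares the number of the PSAT1 probe set, is outside the authors' table and carries no name in the files. It is called the unnamed probe set. No other probe set shares the PHGDH number.

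The tissue was cortical pieces of ovaries from bovine fetuses collected at a slaughterhouse. All pieces were cultured for 2 days. The control medium (TS+) held transferrin and selenous acid together with BSA and linoleic acid, and the other medium (ITS+) contained insulin. The submitters describe insulin as a factor that sets bovine follicles growing, so that control pieces were enriched for resting primordial follicles and insulin pieces for primary follicles. RNA from 3 control and 3 insulin samples was hybridised to 6 single-colour Affymetrix arrays. The labels give neither breed nor fetal age, and do not say whether a sample came from 1 fetus or several, or whether replicates were separate cultures. A difference in these whole pieces can come from more cells that make a transcript or from more transcript per cell, and the arrays cannot tell these apart. No defining marker of an ovarian cell type has a named row, so the tissue label was not checked against markers.

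Serine synthesis branches off glycolysis. PHGDH, phosphoglycerate dehydrogenase, oxidises the glycolytic intermediate phosphoglycerate with NAD and is the entry point of the branch. PSAT1, phosphoserine aminotransferase, then moves an amino group from glutamate onto the product, with pyridoxal phosphate as its cofactor, and a phosphatase, PSPH, releases serine. Serine is used in protein and phospholipid synthesis and gives glycine and the one-carbon units that enter purines and thymidylate, which growing and dividing cells need. In mammalian cells PHGDH and PSAT1 are known targets of ATF4, a transcription factor of amino acid shortage that signalling downstream of insulin can also raise.

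The question was how transcript signals of these enzymes differed between the media. Signals are the linear intensities that the authors scaled and deposited. The rows were chosen because the authors' own comparison of the same arrays had listed them, so all values for insulin against control below describe the rows and are not a test of them. The unnamed probe set was chosen by its number, which it shares with the PSAT1 probe set. Its values too are given as a description and not as a test.

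PHGDH gave signals of 535, 525 and 356 on control arrays 1, 2 and 3, and of 1829, 1800 and 1685 on insulin arrays 1, 2 and 3. Every insulin array was at least 3.15 times as bright as the brightest control array, and control array 3 was the lowest of the 6. The group means were 472 ± 101 and 1771 ± 76.1 (SD, n = 3 each), a ratio of 3.75. On the log2(signal + 16) scale, which lowers the difference of dim probe sets slightly, insulin exceeded control by 1.89 with an SE of 0.17. This was the 8th largest rise among the 14410 probe sets that passed a filter on dim signals.

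The PSAT1 probe set gave 1360, 1684 and 1318 on control arrays 1, 2 and 3, and 3698, 4360 and 3896 on insulin arrays 1, 2 and 3. The groups did not overlap, and array 2 was the highest in both. The means were 1454 ± 200 and 3985 ± 340 (SD, n = 3 each), a ratio of 2.74, and the log2 difference was 1.45 with an SE of 0.14.

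The isoform 2 row gave 239, 320 and 324 on control arrays 1, 2 and 3, and 691, 728 and 679 on insulin arrays 1, 2 and 3. These groups did not overlap either, and here control array 1 was the lowest. The means were 295 ± 47.8 and 699 ± 25.7 (SD, n = 3 each), a ratio of 2.37, with a log2 difference of 1.22 and an SE of 0.15. Whether this row and the PSAT1 probe set detect 1 transcript, or transcripts of near-identical copies, cannot be settled from the files.

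The unnamed probe set gave 373, 629 and 510 on control arrays 1, 2 and 3, and 1352, 1310 and 1047 on insulin arrays 1, 2 and 3. Its groups were also apart, though less widely, with the lowest insulin array 1.67 times the highest control array. The means were 504 ± 128 and 1236 ± 166 (SD, n = 3 each), a ratio of 2.45, with a log2 difference of 1.29 and an SE of 0.20. This mean difference lay between those of the 2 rows that the authors listed under the same number, and its scatter was wider.

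**Figure D1:**
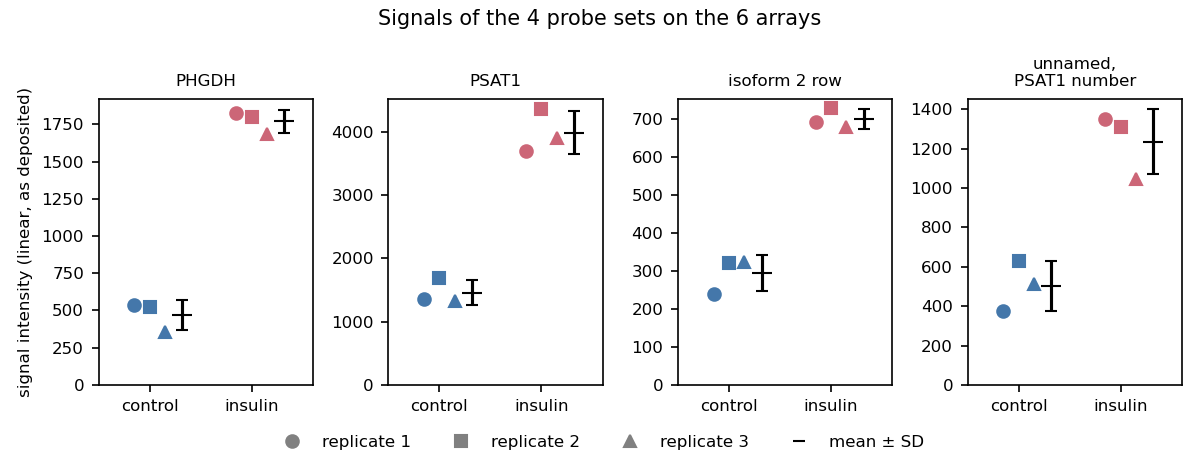
Signal intensity (linear, vertical axis from 0) on each array for the 4 probe sets, with control arrays in blue, insulin arrays in red, marker shape for the replicate number, and black bars for the mean ± SD of 3 arrays. In every panel the 3 insulin arrays lie above the 3 control arrays, from 1.67 to 3.15 times the highest control at the least; the vertical scales differ between panels, and levels of different probe sets are not comparable.

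All 4 probe sets passed the filter and in all 4 the lowest insulin array exceeded the highest control array, as in 12.3% of all probe sets tested. With limma at an adjusted p under 0.05, 4 of 4 were called higher, where 1.18% of all probe sets were called higher and 2.26% were called in either direction. As 3 of the 4 were listed for this contrast and the unnamed probe set shares the number of PSAT1, nothing is read from that count. The 4 had a median log2 difference of 1.37 and a range of 1.22 to 1.89, against a median of -0.00111 over all probe sets tested, the middle 95% of which lay between -0.69 and 0.63. A rise of at least 1 on the log2 scale, which all 4 showed, was seen in 0.694% of probe sets tested. With the replicate number as a block, 4 of 4 were again called, while the total over all probe sets went from 326 to 916. The calls depended on single arrays. Without control array 3 only PHGDH stayed past the threshold, and without any 1 of the insulin arrays only the PHGDH and PSAT1 probe sets did. The total over all probe sets was then 3 without control array 3 and 24, 40 and 59 without insulin array 1, 2 and 3. It was 49 without control array 2, when all 4 were still called.

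**Figure D2:**
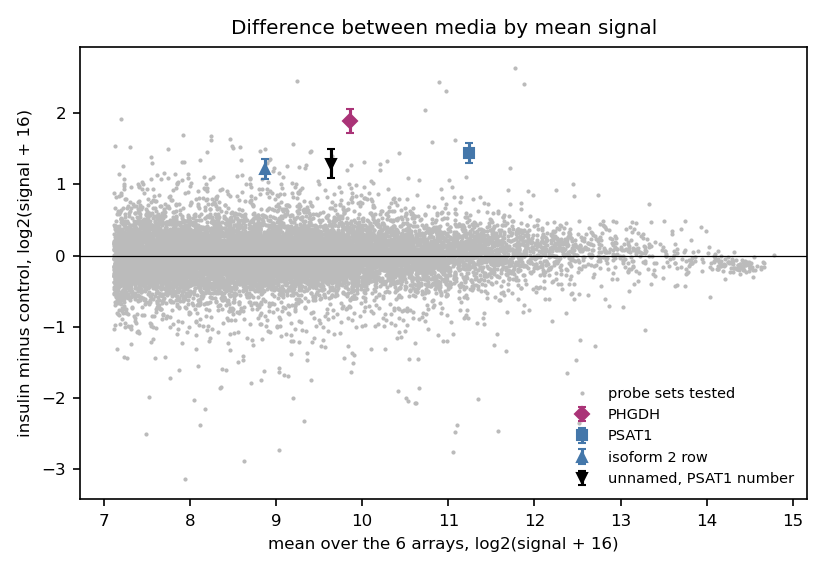
Each grey point is 1 of 14410 probe sets, placed by its mean log2(signal + 16) over 6 arrays (horizontal) and its difference between insulin and control on the same scale (vertical); the larger symbols with SE bars are the 4 probe sets. PHGDH, at 1.89, lies near the upper edge of the cloud, and the other 3 lie between 1.22 and 1.45.

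In the authors' deposited table PHGDH has a log2 ratio of 1.86 and a fold of 3.63, rank 2 of its 158 rows by size of rise. PSAT1 is at rank 5, with a log2 ratio of 1.44 and a fold of 2.71 in the authors' deposited table, and the isoform 2 row is at rank 15, with 1.17 and 2.26. The rows of the authors' deposited table all have a p-value under 0.001, and the values there were 0.000514 for PHGDH, 0.000369 for PSAT1 and 0.000863 for the isoform 2 row. The last of these was close to the edge of the table, at rank 141 of 158 by p. A p of 0.001 with 4 degrees of freedom corresponds to a t statistic of 8.61. Computed here on the log2 signals, the ordinary t was 11.1 for PSAT1, 10.1 for PHGDH and 8.80 for the isoform 2 row. That of the unnamed probe set, outside the table, was 5.35. Its difference was larger than that of the isoform 2 row, and its spread within groups, 0.29 against 0.17 on the log2 scale, was wider.

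The spread between arrays differed among the 4 probe sets. In control medium the coefficient of variation was 21.3% for PHGDH, 13.8% for PSAT1, 16.2% for the isoform 2 row and 25.4% for the unnamed probe set. In insulin medium it was 4.30%, 8.53%, 3.67% and 13.4%, in the same order, so each was smaller there in these 3 arrays. The spread of PHGDH within groups lay at the 63.2 percentile of all probe sets tested, and that of PSAT1 at the 37.1 percentile.

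The replicate numbers shared by the groups gave another view of the response. Over all probe sets tested, same-numbered arrays tended to deviate together from their group means, with correlations of 0.56, 0.31 and 0.42. Between control and insulin arrays of different numbers the correlations lay between -0.41 and 0.13. The labels state no pairing, and single probe sets need not follow it. Between same-numbered arrays, PHGDH was higher with insulin by 1.74, 1.75 and 2.19 on the log2 scale for numbers 1, 2 and 3. The largest value, at number 3, came with the low control array 3. For PSAT1 these differences were 1.43, 1.36 and 1.55, a narrower range. For the isoform 2 row they were 1.47, 1.15 and 1.03, and for the unnamed probe set they were 1.81, 1.04 and 1.01. These last 2 probe sets thus had their largest difference at number 1, where control array 1 was their lowest array, and not at number 3.

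**Figure D3:**
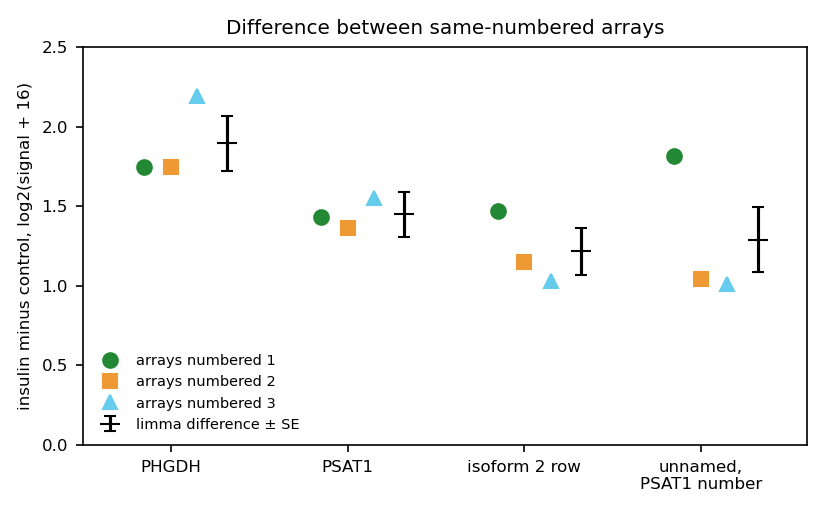
Insulin minus control on the log2(signal + 16) scale between arrays of the same number (coloured symbols), with the limma difference ± SE in black, for the 4 probe sets. All 12 differences are above 1.00; PHGDH is highest at number 3, with 2.19, and the unnamed probe set at number 1, with 1.81.

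The fold of PHGDH was compared with that of PSAT1 inside each array, where a factor common to the whole array cancels. The log2 signal of PHGDH minus that of the PSAT1 probe set, set to a mean of 0 in control, was 0.28, -0.05 and -0.24 on control arrays 1, 2 and 3, and 0.60, 0.34 and 0.40 on insulin arrays 1, 2 and 3. The groups did not overlap, though insulin array 2 exceeded control array 1 by little. The mean response of PHGDH was larger in these arrays, by 0.45 on the log2 scale (SE 0.17, 95% interval -0.03 to 0.92, n = 3 each). Against the isoform 2 row it was larger by 0.68 (SE 0.29, interval -0.11 to 1.47), with groups apart. Against the unnamed probe set it was larger by 0.61 (SE 0.31, interval -0.26 to 1.47), with groups that overlapped. Against the mean of the other 3 probe sets it was larger by 0.58 (SE 0.25, interval -0.10 to 1.26). This last difference ranged from 0.38 without control array 3 to 0.80 without control array 1. All of these intervals include 0, so the size order of the responses is not settled by these arrays. How often other pairs of probe sets have groups apart was not counted, so nothing is read from groups being apart here. These comparisons reuse the contrast the rows were chosen on and carry no test; an exact permutation test of 3 arrays against 3 could not go below p = 0.1. Probe sets can also differ in how steeply they follow transcript level, which was not tested. Differences among the 3 probe sets that share a number were smaller in size. The response of the PSAT1 probe set exceeded that of the isoform 2 row by 0.23 (SE 0.15) and that of the unnamed probe set by 0.16 (SE 0.20), and the groups overlapped in both.

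Within the groups the probe sets did not all move together from array to array. Deviations from the group mean over the 6 arrays correlated at 0.84 between the isoform 2 row and the unnamed probe set, at 0.56 between the PSAT1 and unnamed probe sets and at 0.39 between the PSAT1 probe set and the isoform 2 row. PHGDH deviations correlated at 0.47 with the PSAT1 probe set, -0.04 with the unnamed probe set and -0.52 with the isoform 2 row. These are descriptions over 6 arrays that share their RNA and scaling, and deviations within a group of 3 sum to 0, so fewer than 6 are free. Control array 1 was high for PHGDH, by 0.20 on the log2 scale, and low for the isoform 2 row and the unnamed probe set, with deviations of -0.27 and -0.39. Control array 3 was low for PHGDH, with a deviation of -0.37, and near or above the mean for these other two, at 0.14 and 0.05.

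Among the 101 other rows of the authors' table that have a symbol and passed the filter, those most like the mean of the 3 listed rows were ranked by Pearson's r of log2 signals over the 6 arrays. They were HMGCS1, an enzyme of cholesterol synthesis, at 0.998, KIAA0101, a partner of the replication clamp, at 0.997, and SRSF2, a splicing factor, at 0.995. GPSM2, a regulator of spindle orientation, followed at 0.995, and CYP51A1, a sterol demethylase, at 0.994. All candidate rows were listed for a difference between the same groups, which by itself gives rows that rise a high r. By deviations from the group means, which leave that difference out, the closest rows were CYP51A1 at 0.932, F11R at 0.920, HMGCS1 at 0.895, CKAP2 at 0.858 and KLHL24 at 0.855. CYP51A1 and HMGCS1 are on both lists. F11R, a junctional adhesion molecule, and KLHL24, a ubiquitin ligase adaptor, were lower with insulin, with log2 differences of -0.91 and -0.86. Their deviations correlated with the mean of the listed rows, while their response to the medium was opposite in sign. The listed rows themselves did not all deviate together, with correlations between pairs from -0.52 to 0.47. The rows closest by deviations were picked as the highest of 101, and fewer than 6 deviations are free. Such a choice can by itself give a high r, and this was not tested, so nothing is read from that list.

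**Figure D4:**
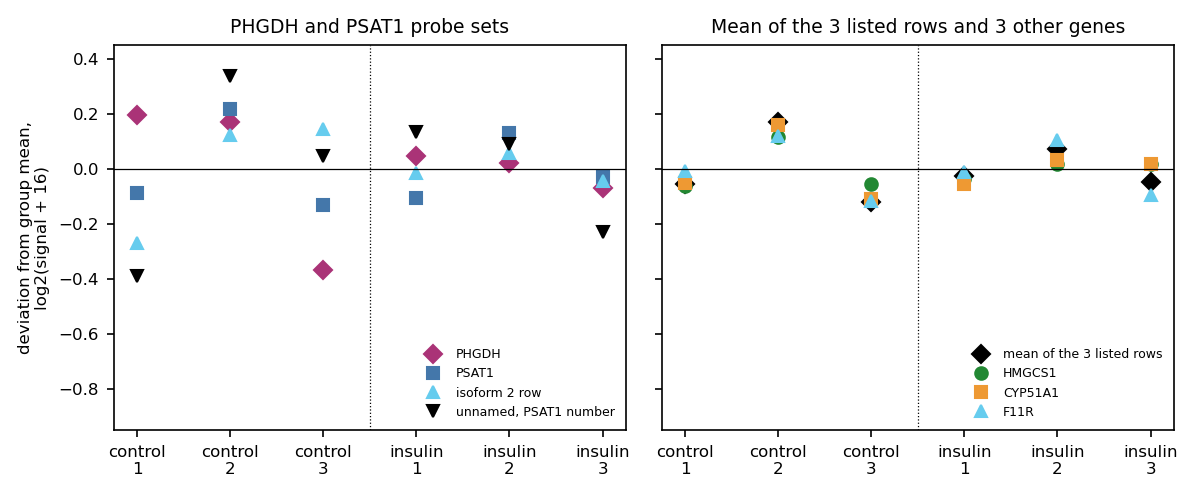
Deviation of each array from its group mean on the log2(signal + 16) scale, for the 4 probe sets (left) and for the mean of the 3 listed rows with HMGCS1, CYP51A1 and F11R (right); the dotted line parts control from insulin arrays. On the left, PHGDH is lowest on control array 3, at -0.37, and the unnamed probe set on control array 1, at -0.39; on the right, the highest value of every series is on control array 2.

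Few other genes of the pathway could be read, because only the authors' table pairs probe sets with names. Of a list of 25 serine, glycine and one-carbon genes, only PHGDH and PSAT1 were named, with 3 rows, all 3 called higher, where 1.18% of all probe sets tested were, and a median log2 difference of 1.45. These rows have names only because the authors listed them for this same contrast, so nothing is read from that count. PSPH, the SHMT and MTHFD genes and the rest of that list were not analysed here. Of 27 genes of the amino acid response driven by ATF4, only SLC38A2, a transporter of small neutral amino acids, had a named row. It was 6977, 6244 and 6747 on control arrays 1, 2 and 3, and 4621, 4347 and 4673 on insulin arrays 1, 2 and 3. Every insulin array of SLC38A2 was thus below every control array, as in 11.9% of all probe sets tested. The log2 difference was -0.55 (SE 0.11), opposite in sign to PHGDH and PSAT1. Its limma adjusted p was 0.0585 and did not pass the threshold. The SLC38A2 row too has a name only because the authors listed it for this contrast. With 1 gene of 27 readable, nothing is read from it about the amino acid response, and a part of ATF4 was not tested. No gene of a list of 15 glycolysis genes had a row in the table. GAPDH, the glycolytic enzyme upstream of the substrate of PHGDH, is measured by control probe sets of the array. Its insulin over control ratios were 1.10 at the 3′ end, 1.12 in the middle and 1.08 at the 5′ end. These were below the 2.37 to 3.75 of the serine synthesis probe sets. The serine synthesis rows were listed for this contrast and the GAPDH probe sets were not, so nothing is read from that order. The log2 ratio of 3′ to 5′ signal, a sign of RNA integrity, differed between the groups by 0.03 for GAPDH and by between -0.13 and 0.22 over 5 control transcripts. The part of RNA integrity in the differences of the serine synthesis probe sets was not tested.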

How the data were processed

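Total RNA of 6 samples (3 control, 3 insulin) was labelled with biotin, per the labels' protocols, and hybridised to Affymetrix arrays, per the file headers. For each array the authors deposited 1 scaled signal intensity, on a linear scale, for every probe set. The submitters' processing notes name GCOS; its version is not given in the sources used here, nor are its settings. Array medians lay between 196 and 212, and for arrays the number of arrays, 3 per group, limits the precision. The authors' deposited table gives a log2 ratio, a fold, a p-value and a t score per row, per the file headers; its 9 per-array columns, day 0 columns among them, matched no sample and were not used.

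Signals were analysed as log2(signal + 16). After removal of 112 control probe sets and of the dimmest 40% by mean log2 signal (below a signal of 122), 14410 were fitted with limma 3.58.1 in R 4.3.3 (lmFit, eBayes), p-values adjusted by Benjamini-Hochberg and a threshold of 0.05. Errors are limma SEs for log2 differences, and SEs from the within-array values for PHGDH against PSAT1. The 95% intervals of the latter use the t distribution with 4 degrees of freedom. The fit was tested on simulated data. Python 3.11.15, pandas 2.3.3 and matplotlib 3.10.9 made the tables and figures. Names come from the authors' table and the RefSeq table of assembly ARS-UCD2.0; no coordinates are given, since the values name no build. Protein and promoter sequences were not used here.

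Same-numbered arrays deviated together from their group means (correlations over probe sets of 0.56, 0.31 and 0.42 for numbers 1, 2 and 3). Control and insulin arrays of different numbers correlated at -0.41 to 0.13. The numbers were therefore treated as pairs in an alternative fit, and the pairing comes from the data, not the labels. Where replicates are not separate cultures, p-values measure technical spread only. The rows, the gene lists and the rule for similar genes (highest r with the mean of the 3 listed rows, by signals and by deviations) were chosen with earlier results of these data known. Alternatives changed the pseudocount, filter, normalization, variance model, weights, block and arrays.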

Additional observations from a re-analysis of the deposited data

Results flagged for a closer look

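The comparison of media left out the control probe sets of the array, of which 18 with the bovine prefix Bt in their names were above the filter. Whether each of the 18 detects a bovine transcript was not checked. On 4 of them every insulin array was brighter than the control arrays, on 1 every insulin array was dimmer, at a ratio of 0.882, and on 13 the groups overlapped. Among the 4, the ratio of insulin over control was 1.10 for the 3′ probe set of GAPDH. For GST, a glutathione S-transferase, it was 1.44 at the 3′ end, 1.34 in the middle and 1.59 at the 5′ end. Of all probe sets tested, 12.3% had every insulin array above the control arrays and 11.9% had every insulin array below them. All 4 ratios were below those of the PHGDH and PSAT1 probe sets, the lowest of which was 2.37. The PHGDH and PSAT1 rows were listed for this contrast and the control probe sets were not, so nothing is read from that order.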

How the results depend on the processing

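The log2 differences of the 4 probe sets moved by less than the spread between replicates in all 64 combinations of probe set and alternative, and 0 changed sign. They ranged from 1.71 to 1.99 for PHGDH and 1.38 to 1.56 for the PSAT1 probe set. The ranges were 1.08 to 1.29 for the isoform 2 row and 1.09 to 1.46 for the unnamed probe set. Part of this stability was fixed in advance. Changes of filter, variance model and block leave these differences as they were. Every insulin array was above every control array, so leaving out 1 array could not change a sign. The PHGDH response minus the mean response of the other 3 probe sets ranged from 0.38 to 0.80 with 1 array left out. Its groups were apart on all arrays, so leaving out 1 array could not change its sign. Its 95% interval on all arrays, from -0.10 to 1.26, included 0. The calls moved more. Of the 4 probe sets, limma called 0 with no filter (adjusted p from 0.0874 to 0.110), and 0 passed with an ordinary t statistic (0.0796 to 0.149), though all 4 had an unadjusted p under 0.05 in both. With 1 array left out, 1 to 4 were called. The count of 326 over all probe sets (170 higher, 156 lower) fell to 2 without the filter and to 12 with the ordinary t statistic. It grew to 542 under a trended robust variance, 605 under array weights and 916 under the replicate block, and was 3 to 244 with 1 array left out. All 4 were called with the replicate block, which changed no call among them. The no-filter fit tests 24016 probe sets, so dim ones enter the variance estimate and the adjustment. The cause of the other changes was not tested.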

Other observations

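GLUL, glutamine synthetase, uses up the glutamate that PSAT1 takes as amino donor. Its row was picked after its values were seen, from rows listed for this same contrast, so it is given as values only. GLUL was lower with insulin, at 5389, 5017 and 4844 on control arrays 1, 2 and 3 and 3055, 2867 and 3015 on insulin arrays 1, 2 and 3, for a log2 difference of -0.77 (SE 0.11).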
